A study of Mus musculus with 7 samples.

Results

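This report describes 9 genes that encode gasdermins and the inflammasome proteins upstream of them: Gsdmc2, Gsdmc3, Gsdmc4, Gsdmd, Casp1, Casp4, Nlrp3, Nlrp6 and Pycard. They were chosen by name and found through their gene identifiers among 18036 genes with a read in at least 1 of 7 RNA sequencing libraries of mouse colon epithelium. All 9 were found, and all 9 were among the 12061 genes that reached 1 RPKM (unique reads scaled to gene length and library depth) in at least 2 libraries. Nlrp3 met that limit only through 4 treated libraries, so its difference from the control follows in part from the limit.

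The mice were female hCYP1A mice of the C57BL/6 strain, 6 weeks old, whose mouse Cyp1a genes are replaced by the human CYP1A genes in every group, the control included. Each library was 1 pool of RNA from 3 mice. The control mice were untreated. The DSS mice received 1.5% DSS (dextran sulfate sodium, a polymer that injures the colon lining) in drinking water over 5 days. The PhIP/DSS mice were first given PhIP, a carcinogen of cooked meat, as 2 doses of 100 mg/kg with 4 days between them, and started the same DSS course a week later. Both arms were sampled 1, 3 and 7 days after DSS, with pathology labelled as colitis on days 1 and 3, as partial colitis on day 7 and as normal in the control. Epithelium was scraped off the muscle layer, so cells of the lamina propria can be present. No library has a replicate, and the mice of a pool cannot be told apart. The spread behind the p-values below is only that among these 7 pooled libraries.

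Inflammasomes are protein complexes that assemble in the cytosol when a sensor such as NLRP3 or NLRP6 detects infection or damage. The adaptor ASC, encoded by Pycard, then recruits caspase-1, which matures the cytokines IL-1 beta and IL-18 and cuts gasdermin D. The freed part of gasdermin D forms pores in the plasma membrane, and cells with many pores die by pyroptosis. Mouse Casp4 encodes caspase-11, which binds bacterial lipopolysaccharide directly and also cuts gasdermin D. The gasdermin C genes are abundant in mouse intestinal epithelium and are known as targets of type 2 cytokine signalling through STAT6.

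Gsdmc2, Gsdmc3 and Gsdmc4 are neighbouring copies on chromosome 15, and their near identity limits every value of theirs. In GRCm38.p6 they lie at chr15:63824328-63845193, chr15:63857605-63878579 and chr15:63891140-63912319. Coding sequences of Gsdmc2 and Gsdmc3 in the GENCODE annotation of GRCm38 were identical at 97.1% of aligned bases, with 42 differences in 1440. Gsdmc4 was identical to Gsdmc2 at 93.7% and to Gsdmc3 at 93.8%. The stretch below, coding bases 519 to 689 counted from the A of the start codon, is the longest that all 3 genes share without a difference, and a single read inside its 171 bases has no unique place. It spans an exon junction.

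Shared by Gsdmc2, Gsdmc3 and Gsdmc4: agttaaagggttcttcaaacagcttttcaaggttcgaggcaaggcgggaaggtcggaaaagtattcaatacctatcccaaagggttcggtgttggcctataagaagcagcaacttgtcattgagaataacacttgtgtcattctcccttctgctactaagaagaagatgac

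The next 3 sequences show the coding window of 90 bases in which the copies differ most, at 18 positions, given in capitals. A read across this window can be told apart. The windows lie in coding exon sequence on the minus strand, at chr15:63826834-63826923 for Gsdmc2, chr15:63860264-63860353 for Gsdmc3 and chr15:63893781-63893870 for Gsdmc4.

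Gsdmc2: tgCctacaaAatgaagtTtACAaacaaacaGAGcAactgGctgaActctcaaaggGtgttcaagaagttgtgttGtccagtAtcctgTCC

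Gsdmc3: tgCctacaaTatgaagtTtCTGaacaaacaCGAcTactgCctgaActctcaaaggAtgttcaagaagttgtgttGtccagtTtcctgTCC

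Gsdmc4: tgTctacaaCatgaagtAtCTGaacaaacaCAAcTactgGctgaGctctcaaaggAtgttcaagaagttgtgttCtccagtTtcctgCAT

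Of all windows of 50 bases in the Gsdmc2 transcript, 51.5% occurred in no other gene's transcripts. The share was 58.2% for Gsdmc3 and 61.0% for Gsdmc4, and with windows of 100 bases the shares were 71.4%, 76.9% and 79.8%. It was 100% at both lengths for Gsdmd, Casp1, Casp4, Nlrp3 and Nlrp6, whose reads face no such limit. The deposited coverage, the percent of a gene's length under unique reads, was between 61.0% and 77.1% for the 3 Gsdmc genes in all 7 libraries, and between 97.8% and 99.7% for Gsdmd. It did not separate copies from single genes throughout, since for Casp4 and Nlrp3, which had few reads, it was as low as 72.9% and 9.75% in libraries where they had a read. The levels of the Gsdmc genes therefore count only reads from the parts that differ, are set against the full gene length, and are uncertain as levels relative to each other. Their sum is given beside them. The sources used here do not give the read length.

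The clearest pattern among the 9 genes was low Gsdmc2, Gsdmc3 and Gsdmc4 in every treated library, beside higher Gsdmd, Casp1, Pycard and Nlrp3 in every treated library. The 3 Gsdmc genes were between 1.63-fold and 14.4-fold below the control, and Gsdmd and Casp1 were between 1.26-fold and 1.74-fold above it. Nlrp6 was above the control in 1 treated library and below it in 5, and Casp4 was above it in 3 and below it in 3. None of these differences passed the test across all genes.

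**Figure D1:**
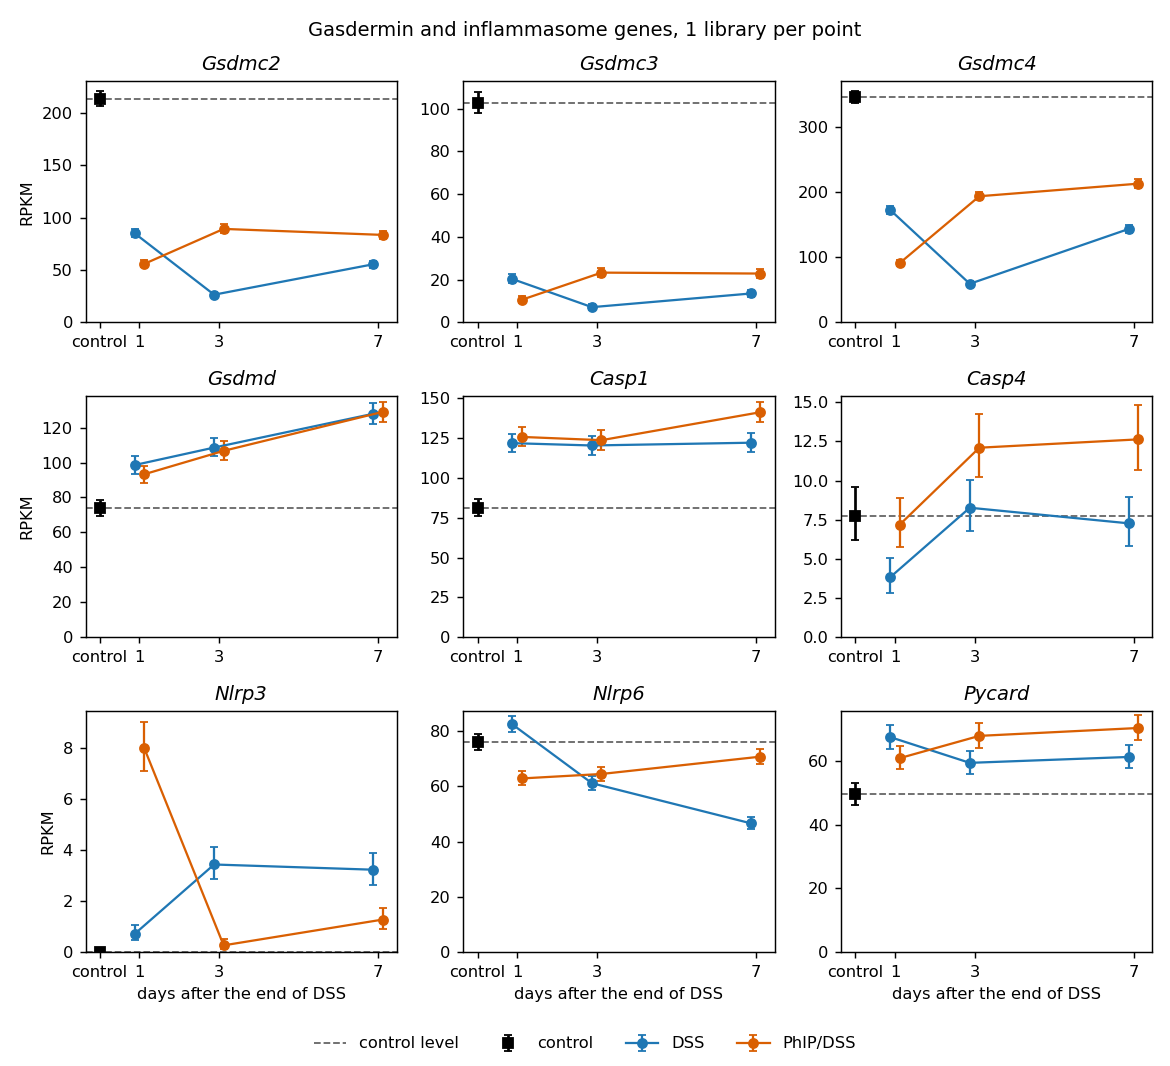
RPKM of each gene (vertical axis) by days after DSS (horizontal axis), with the control at the left as a black square and a dashed line, DSS in blue and PhIP/DSS in orange. Each point is 1 library, and bars are exact 95% counting intervals, which leave out the spread between mice. The control bar of Nlrp3, at 0 reads, is drawn to the floor of 3 reads instead. The Gsdmc genes lie below the dashed line at every point, and Gsdmd, Casp1 and Pycard lie above it.

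The test was edgeR's quasi-likelihood test on unique read counts, in a model with terms for the control, the days and PhIP, and a call at an adjusted p under 0.05. It called 0 of the 9 genes on day 1 against control, where it called 0.0% of 12061 genes, and 3 of the 9 had an unadjusted p under 0.05, as did 3932 of all genes. On day 3 it called 0 of the 9 (0.0% of all genes), with 4 of the 9 and 2291 of all genes at an unadjusted p under 0.05. On day 7 it called 0 of the 9 (0.0% of all genes), with 4 of the 9 and 2076 of all genes at an unadjusted p under 0.05. Day 7 against day 1 also gave 0 of the 9 (0.0% of all genes), with 2 of the 9 and 3172 of all genes at an unadjusted p under 0.05. PhIP/DSS against DSS over the 3 days gave 0 of the 9 (0.0% of all genes), with 1 of the 9 and 442 of all genes at an unadjusted p under 0.05. DESeq2 called 1243, 438, 459, 693 and 13 of all genes in the same order, and 2, 2, 2, 1 and 0 of the 9. These were Casp1 and Nlrp3 on day 1, Casp1 and Gsdmd on days 3 and 7, and Gsdmd for day 7 against day 1. The fit had 2 residual degrees of freedom, which come from how far the arm difference varied between days, and the control was assumed to vary like the treated libraries. Since there is 1 control library, the comparisons of the 3 days with it are not independent.

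Single libraries were also compared by depth-scaled reads (unique reads over the library total), with a 2-fold limit that had to be passed in both arms of a day. On day 1, 3 of the 9 genes were past it on the lower side, Gsdmc2, Gsdmc3 and Gsdmc4, where 4.63% of the 12061 genes were. On day 3 they were 2 of the 9, Gsdmc2 and Gsdmc3, against 2.76% of all genes. On day 7 the same pair was past the limit, against 2.44% of all genes. On the higher side 1 of the 9 genes, Nlrp3, was past it on day 1 (6.16% of all genes), day 3 (4.62%) and day 7 (6.23%). On day 3 the PhIP/DSS ratio of Nlrp3 was 2.73 over a floor of 3 control reads, with a lower counting limit of 1.80. Gsdmc4 missed the limit on days 3 and 7 through the PhIP/DSS libraries, at 1.79-fold and 1.63-fold below the control.

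**Figure D2:**
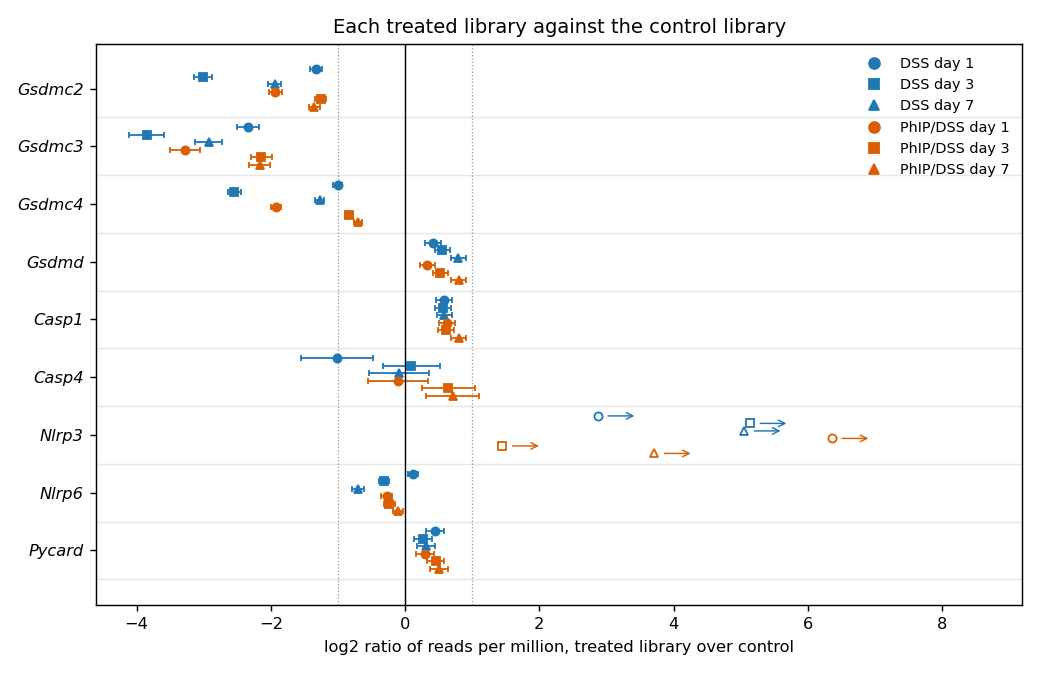
Log2 ratio of depth-scaled reads in each treated library over the control (horizontal axis) for the 9 genes (vertical axis), with symbols for days and colours for arms. Bars are exact 95% counting intervals, and dotted lines mark a 2-fold difference. Open symbols with arrows mark Nlrp3, whose ratio has no upper limit because it had 0 control reads. The 18 Gsdmc2, Gsdmc3 and Gsdmc4 points lie left of 0.

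Gsdmc4, the most abundant of the 3 copies by RPKM, stood at 345.7 RPKM in the control. In the DSS libraries it stood at 172 RPKM on day 1, 59.1 on day 3 and 143 on day 7. In the PhIP/DSS libraries it stood at 91.1 RPKM on day 1, 193 on day 3 and 213 on day 7. All 6 treated libraries were below the control, with the lowest value in DSS on day 3. Its fitted log2 fold change against control was -1.32 (SE 0.72, edgeR adjusted p = 0.260) on day 1, -1.53 (SE 0.71, adjusted p = 0.316) on day 3 and -0.96 (SE 0.71, adjusted p = 0.515) on day 7.

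Gsdmc2 was at 213.8 RPKM in the control. Its DSS levels were 85.1 RPKM on day 1, 26.4 on day 3 and 55.5 on day 7. Its PhIP/DSS levels were 55.8 RPKM on day 1, 89.3 on day 3 and 83.6 on day 7. The order of the libraries was close to that of Gsdmc4, with DSS day 3 again lowest, 8.08-fold below the control (95% counting interval 7.38 to 8.86). The fitted log2 fold changes were -1.53 (SE 0.64, edgeR adjusted p = 0.177), -1.99 (SE 0.64, adjusted p = 0.222) and -1.62 (SE 0.63, adjusted p = 0.295) on days 1, 3 and 7.

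Gsdmc3 had the widest range of the 3, from 102.8 RPKM in the control to 7.12 in DSS on day 3, a ratio of 14.4 (counting interval 12.1 to 17.3). The other DSS levels were 20.3 RPKM on day 1 and 13.5 on day 7. The PhIP/DSS levels were 10.6 RPKM on day 1, 23.3 on day 3 and 22.8 on day 7. Every treated library was at least 4.42-fold below the control. The fitted log2 fold changes were -2.65 (SE 0.71, edgeR adjusted p = 0.0916), -2.84 (SE 0.71, adjusted p = 0.182) and -2.51 (SE 0.70, adjusted p = 0.209) on days 1, 3 and 7.

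Summed over the 3 genes, the control held 662 RPKM. Day by day, from 1 to 3 to 7, DSS had 278, 92.7 and 212 RPKM and PhIP/DSS had 158, 306 and 319. With the reads of the 3 genes summed before the fit, the log2 fold change was -1.51 (SE 0.70, edgeR adjusted p = 0.206) on day 1, -1.83 (SE 0.70, adjusted p = 0.265) on day 3 and -1.33 (SE 0.69, adjusted p = 0.392) on day 7. The sum does not depend on how unique reads were split among the copies, though reads that match several copies are missing from it, and it did not pass the test in that form either.

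The make-up of the sum differed between the control and the treated libraries. Gsdmc3 supplied 15.3% of the 10996 reads of the 3 genes in the control (95% Wilson interval 14.68% to 16.03%). It supplied 7.25%, 7.64% and 6.35% in DSS on days 1, 3 and 7, and 6.65%, 7.56% and 7.14% in PhIP/DSS. The highest upper limit among the 6 treated libraries was 8.98%, so no treated interval reached that of the control. Gsdmc4 supplied 50.2% of the reads in the control and between 55.6% and 65.5% in the treated libraries. Gsdmc2 supplied 34.4% in the control and between 28.1% and 37.8% in the treated libraries, above the control in PhIP/DSS on day 1 only. These intervals cover counting error only, since reads without molecular identifiers are not independent molecules.

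Most epithelial markers were not below the control. Of 11, all of which had reads in all 7 libraries, 9 had a fitted level above it on days 1 and 3 and 8 on day 7, with median log2 fold changes of 0.27, 0.26 and 0.22, and none was called. Epcam, an adhesion protein of epithelial cells, was at 718 RPKM in the control and between 812 and 1018 in the treated libraries. Krt20, a keratin of mature colonocytes, was at 448 RPKM in the control and between 706 and 1008 in the treated libraries. Relative to Epcam, the summed Gsdmc level was 2.70, 8.91 and 4.13 times below the control in DSS on days 1, 3 and 7, and 5.04, 2.72 and 2.94 times below it in PhIP/DSS. Slc26a3, a chloride transporter of surface colonocytes on the same list, went the other way, at 470 RPKM in the control and between 110.0 and 175 in the treated libraries. Set against Slc26a3 instead of Epcam, the drop of the summed Gsdmc level was smaller in every treated library and absent in some. The relative drop thus depends on the marker chosen. Cdh1, also on the list, was below the control in all treated libraries, at 511 RPKM in the control and between 411 and 499 elsewhere. In bulk RNA, fewer cells of a type and less RNA per cell cannot be told apart.

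**Figure D3:**
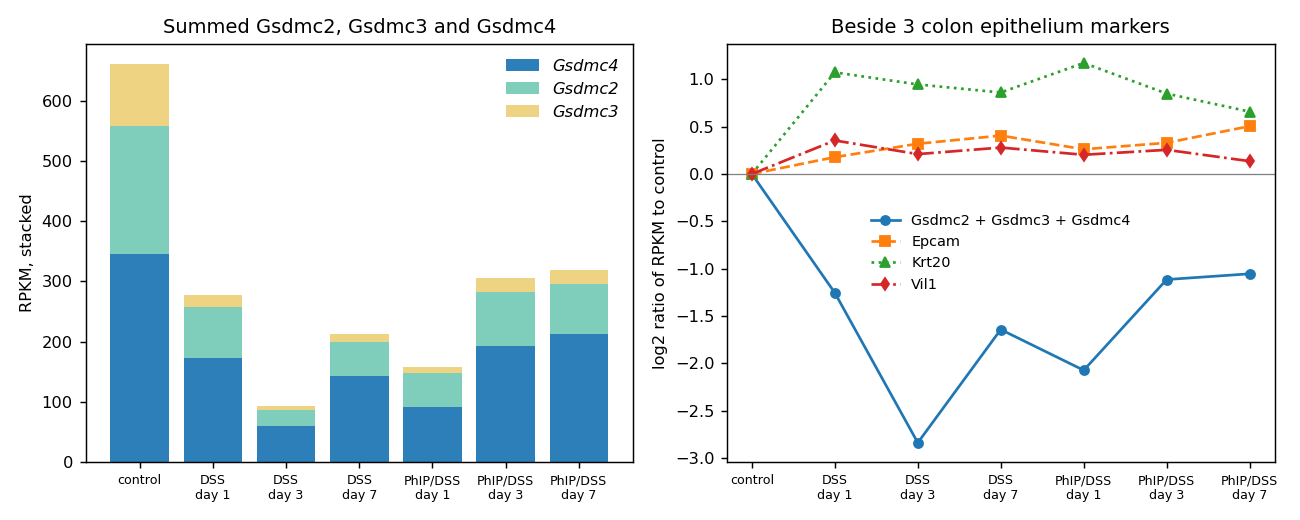
Left, stacked RPKM of Gsdmc4, Gsdmc2 and Gsdmc3 in each of the 7 libraries. Right, log2 ratio to the control of their summed RPKM beside Epcam, Krt20 and Vil1, with 1 point per library. The sum lies between 92.7 and 319 RPKM in the treated libraries against 662 in the control. These 3 markers, picked from a list of 11, lie above the control line. Of the markers not drawn, Slc26a3 and Cdh1 were below the control in every treated library, and others, Cdx2 among them, in some.

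The arms differed in opposite directions on different days. On day 1 the summed Gsdmc reads were 1.75-fold lower in PhIP/DSS than in DSS (counting interval 1.68 to 1.84). On day 3 they were 3.30-fold higher in PhIP/DSS (3.13 to 3.49), and on day 7 they were 1.50-fold higher (1.44 to 1.57). By the 2-fold limit, 3 of the 9 genes were higher in PhIP/DSS on day 3, Gsdmc2, Gsdmc3 and Gsdmc4, where 2.06% of all genes were. On the lower side, 0 of the 9 were past the limit on day 1, against 1.89% of all genes. On day 7, 0 of the 9 were past it on the higher side, against 1.85%. Averaged over the days, the fitted PhIP term was 0.55 for Gsdmc2 (SE 0.46), 0.50 for Gsdmc3 (SE 0.52) and 0.44 for Gsdmc4 (SE 0.52), each with an edgeR adjusted p of 0.998. Without the DSS day 3 library these became -0.03, -0.10 and -0.19. The design has 1 library for each arm and day, so a difference between days in the effect of PhIP could not be tested.

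Within the DSS arm, the summed reads were 3.00-fold lower on day 3 than on day 1 and 2.28-fold higher on day 7 than on day 3. Within the PhIP/DSS arm they were 1.93-fold higher on day 3 than on day 1 and 1.04-fold higher on day 7 than on day 3. The lowest library was thus day 3 in one arm and day 1 in the other, and no library returned to the control level.

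Nlrp3 encodes a sensor best known from macrophages and neutrophils. It had 0 reads in the control, where a floor of 3 reads would be 0.0973 RPKM. In DSS it stood at 0.712 RPKM on day 1, 3.43 on day 3 and 3.22 on day 7, from 25, 121 and 107 reads. In PhIP/DSS it stood at 7.98 RPKM on day 1, 0.266 on day 3 and 1.27 on day 7, from 274, 9 and 43 reads. Its level in every treated library was above the control, with PhIP/DSS day 1 highest. Over a floor of 3 control reads, its ratio was 7.32, 35.2 and 33.1 in DSS on days 1, 3 and 7. In PhIP/DSS the ratio was 82.0 on day 1, 2.73 on day 3 and 13.1 on day 7. These ratios leave out counting error in the treated library. The lower limits of the exact counting intervals were 5.52, 28.2 and 26.5 in DSS, and 66.2, 1.80 and 10.2 in PhIP/DSS. The edgeR adjusted p was 0.183 on day 1, 0.367 on day 3 and 0.376 on day 7, and its fitted folds, which rest on 0 control reads, are not given.

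Between the arms, Nlrp3 was 11.2-fold higher in PhIP/DSS than in DSS on day 1 (counting interval 7.43 to 17.6), 1 of the 9 genes past the 2-fold limit, against 6.47% of all genes. On day 3 it was 12.9-fold lower in PhIP/DSS (6.57 to 28.9), again 1 of the 9, against 4.34% of all genes. On day 7 it was 2.53-fold lower (1.76 to 3.70), 1 of the 9, against 2.57% of all genes. The arms thus changed places between days 1 and 3, as they did for the Gsdmc genes with the opposite sign.

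Summed over each list, markers of myeloid cells moved with Nlrp3. The summed level of 10 neutrophil markers was 2.99 RPKM in the control, where 6 had reads and Clec4e, Il1r2, Mmp8 and Retnlg were at 0. It was 37.3, 1184 and 481 RPKM in DSS on days 1, 3 and 7, and 838, 33 and 74.1 in PhIP/DSS, with all 10 detected. The summed level of 12 macrophage and monocyte markers was 53.6 RPKM in the control. It was 115, 299 and 258 RPKM in DSS, and 532, 108 and 201 in PhIP/DSS, with all 12 detected in all 7 libraries. PhIP/DSS day 1 and DSS day 3, the 2 libraries with most Nlrp3, also had the highest sums of both lists. Single markers differed. On the macrophage and monocyte list, Mrc1, C1qa and Ccr2 were highest in PhIP/DSS on day 7, at 2.66, 18.6 and 1.96 RPKM. The rest of that list was highest in PhIP/DSS on day 1. The summed 12 macrophage and 8 fibroblast markers both ranked the 7 libraries as Nlrp3 did, the fibroblast sum running from 16.6 RPKM in the control to 238 in PhIP/DSS on day 1. That library also had 150 RPKM over 5 fat markers, against 22.1 in the control and at most 2.70 in the other treated libraries, all of which had Plin1 at 0. The part of these cell types in the level of Nlrp3, or of the Gsdmc genes, was not tested.

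**Figure D4:**
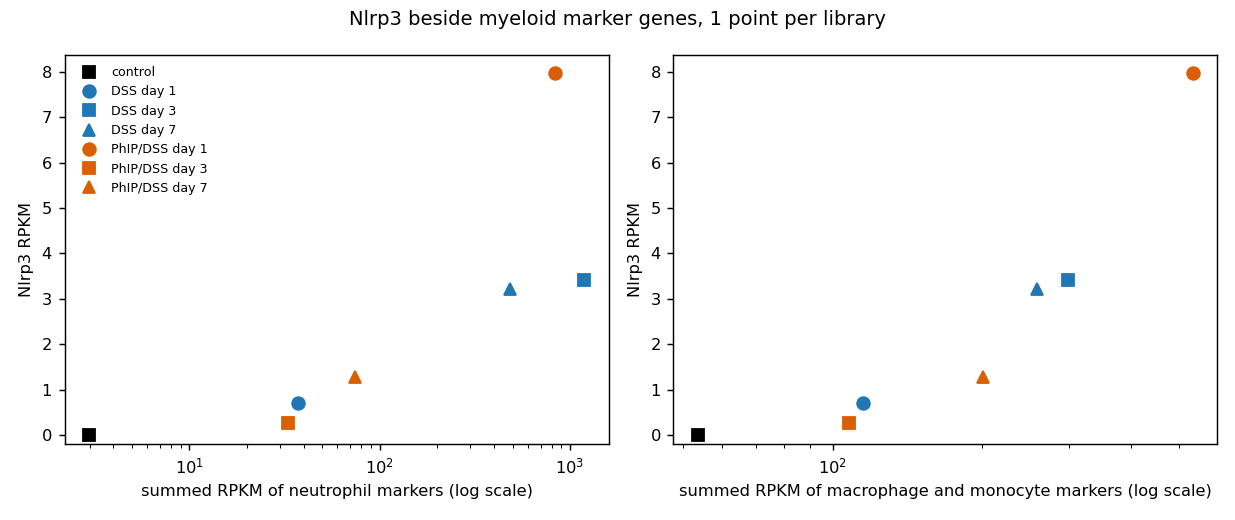
Nlrp3 RPKM (vertical axis) against the summed RPKM of 10 neutrophil markers (left) and 12 macrophage and monocyte markers (right), horizontal axes on a log scale, 1 point per library. The control lies at the lower left of both panels, and PhIP/DSS day 1 lies highest at 7.98 RPKM of Nlrp3.

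The genes whose log2(RPKM + 1) followed Nlrp3 most closely over the 7 libraries were Arrb2, Ptgs2, Fcer1g, Hcls1 and Csf1r, with Pearson r of 1.00, 0.99, 0.99, 0.99 and 0.99. For the summed Gsdmc level they were Cldn3 and Pura (both r = 0.98) and Wfdc2, Slc30a1 and Trappc12 (each r = 0.97). Wfdc2, a secreted epithelial protein, was at 334 RPKM in the control and between 68.4 and 159 in the treated libraries, and Cldn3, a tight junction claudin, was at 734 and between 583 and 668. These are descriptions chosen as the highest of 8341 genes with a mean of at least 5 RPKM, over libraries that share 1 control. Among the 9 genes, Gsdmc2 and Gsdmc3 were most alike (r = 0.97), followed by Gsdmc2 and Gsdmc4 (r = 0.95), copies that may share misassigned reads. Nlrp3 ran against Gsdmc4 (r = -0.82), and Casp1 followed Pycard (r = 0.90).

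Nlrp6, the sensor known for its part in the colon epithelium and its mucus layer, was far more abundant than Nlrp3. Its control level was 76.0 RPKM, and its DSS levels were 82.3, 61.1 and 46.6 RPKM on days 1, 3 and 7. In PhIP/DSS it was at 62.8, 64.4 and 70.7 RPKM. The lowest level was that of DSS on day 7, 1.63-fold below the control (counting interval 1.53 to 1.73), and DSS on day 1 was 1.08-fold above it. PhIP/DSS was 1.31-fold lower than DSS on day 1 and 1.52-fold higher on day 7. The fitted log2 fold changes were -0.07, -0.25 and -0.36 on days 1, 3 and 7 (SE 0.29 each), and none passed the test, with edgeR adjusted p of 0.885, 0.648 and 0.543. The 5 genes most like Nlrp6 over the 7 libraries were Pank4 (r = 0.97), Ccnq and Mkks (both r = 0.95) and Atp5c1 and Nt5c3b (both r = 0.94).

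Pycard, the adaptor, was at 49.6 RPKM in the control. It was at 67.5, 59.4 and 61.3 RPKM in DSS on days 1, 3 and 7, and at 60.9, 67.9 and 70.4 in PhIP/DSS. All 6 treated libraries were above the control, by 1.20-fold to 1.42-fold, and the lowest treated counting interval began at 56.0 RPKM, above the control's upper limit of 53.1. The fitted log2 fold change was 0.37 on day 1, 0.38 on day 3 and 0.43 on day 7 (SE 0.15 each), with edgeR adjusted p of 0.172, 0.272 and 0.267. In the GENCODE annotation 485 of its 3800 exonic bases (12.8%) are shared with the antisense gene Gm45205. The deposited length of Pycard was 2135 bases, and whether the overlap lies within the counted part was not checked. The strand setting of the counting is not given, so any reads of the overlap cannot be told apart.

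Casp1, the protease of the inflammasome, was at 81.5 RPKM in the control. Its DSS levels were 121.9, 120.5 and 122.2 RPKM on days 1, 3 and 7, and its PhIP/DSS levels were 125.9, 123.8 and 141.4. The 6 treated libraries lay between 1.48-fold and 1.74-fold above the control, with PhIP/DSS day 7 highest and the other 5 close together. The fitted log2 fold change was 0.60 (SE 0.11, edgeR adjusted p = 0.0712) on day 1, 0.61 (SE 0.11, adjusted p = 0.152) on day 3 and 0.72 (SE 0.12, adjusted p = 0.118) on day 7. In DESeq2 all 3 passed, with adjusted p of 0.0202, 0.0305 and 0.00553. The PhIP term was 0.08 (SE 0.07).

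Casp4, whose caspase acts without ASC, had few reads, from 48 to 152 in a library. It was at 7.74 RPKM in the control (counting interval 6.18 to 9.57). In DSS it was at 3.84 RPKM on day 1, 8.26 on day 3 and 7.27 on day 7, and in PhIP/DSS at 7.19, 12.1 and 12.6. The intervals of DSS days 3 and 7 and of PhIP/DSS day 1 contained the control value. PhIP/DSS was above DSS on all 3 days, by 1.87-fold (counting interval 1.30 to 2.72), 1.46-fold (1.13 to 1.90) and 1.74-fold (1.32 to 2.29). This was the steadiest arm difference among the 9 genes, with a fitted log2 value of 0.73 (SE 0.15) and an unadjusted p of 0.00616, but it did not pass the test over all genes (edgeR adjusted p = 0.998). Day 7 was above day 1 at a log2 value of 0.89 (SE 0.19, adjusted p = 0.0964). The 5 genes most like Casp4 over the 7 libraries were Cpe (r = 0.96), Cdc42se2 and Ccng2 (both r = 0.95) and Eloa and Resf1 (both r = 0.94).

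Gsdmd, the pore-forming target of both caspases, was at 74.1 RPKM in the control. It was at 98.6, 108.5 and 127.9 RPKM in DSS on days 1, 3 and 7, and at 93.3, 106.7 and 128.9 in PhIP/DSS. Both arms were above the control on each day, and in both the level was higher on each later day. The arms differed by at most 1.06-fold on any day, with counting intervals that included no difference. The fitted log2 fold change was 0.36 (SE 0.10, edgeR adjusted p = 0.0987) on day 1, 0.56 (SE 0.10, adjusted p = 0.152) on day 3 and 0.82 (SE 0.11, adjusted p = 0.0977) on day 7. Day 7 was above day 1 by 0.46 (SE 0.08, adjusted p = 0.0934), and in DESeq2 this passed, with an adjusted p of 0.0212. Gsdmd and the Gsdmc genes, members of 1 family, thus lay on opposite sides of the control in all 6 treated libraries.

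Of the other gasdermin genes, 4 of 6 had reads and 3 passed the filter, and all 3 had a fitted level below control on each day, with none called. Their median log2 fold change was -0.44, -0.40 and -0.21 on days 1, 3 and 7, where that of all genes tested was 0.01, 0.01 and -0.01. Gsdmc, the fourth copy of the cluster, was at 6.85 RPKM in the control, at 2.84, 1.39 and 1.73 in DSS and at 0.984, 2.64 and 3.25 in PhIP/DSS. It lay below the control in all 6 treated libraries, as its neighbours did. Gsdme was at 3.18 RPKM in the control and between 2.36 and 3.36 in the treated libraries. Gsdma, a skin gasdermin, had few reads, 27 in the control and from 14 to 44 in the treated libraries. It was at 1.29 RPKM in the control and lower in all 3 DSS libraries (0.630, 0.668 and 0.622). In all 3 PhIP/DSS libraries it was higher (1.46, 1.39 and 1.92), but by only 1.13-fold and 1.08-fold on days 1 and 3. The mean of both arms does not show this split. In the edgeR comparison of PhIP/DSS with DSS, 0 of the 3 genes were called, and 1 had an unadjusted p under 0.05.

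Of 12 other inflammasome sensors, 11 passed the filter, and 6, 8 and 9 had a fitted level above control on days 1, 3 and 7, with none called. The medians were 0.13, 0.33 and 0.60, beside 0.01, 0.01 and -0.01 over all genes tested. Naip1, a sensor of bacterial secretion needles that signals through Nlrc4, was the most abundant, at 48.5 RPKM in the control and between 54.0 and 71.9 in the treated libraries. Naip2, which senses the rod protein of the same systems, was at 27.5 RPKM in the control and highest on day 7, at 46.3 in the DSS arm and 46.4 in the PhIP/DSS arm. Its day 7 log2 fold change was 0.78 (SE 0.18, edgeR adjusted p = 0.166). Nlrp10 was lowest relative to control, at -1.61 (SE 0.62), -1.19 (SE 0.61) and -0.29 (SE 0.61). Mefv, the pyrin gene of granulocytes, had 0 control reads and stood at 0.599, 3.05 and 2.09 RPKM in DSS and 3.89, 0.110 and 0.659 in PhIP/DSS, the same order of libraries as Nlrp3.

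Of 9 cell death proteases and membrane rupture genes, 6 passed the filter, and 4, 5 and 5 had a fitted level above control on days 1, 3 and 7, with none called and medians of 0.49, 0.20 and 0.46. Casp8, the apoptotic initiator protease that can also cut gasdermin C, was at 31.4 RPKM in the control. All 6 treated libraries were above it, with 57.5, 61.8 and 57.8 RPKM in DSS and 74.1, 54.3 and 53.5 in PhIP/DSS. Its day 1 fit gave 1.06 (SE 0.21, edgeR adjusted p = 0.0723). Ninj1, whose protein ruptures the membrane of dying cells, was at 17.2 RPKM in the control and between 10.8 and 27.8 elsewhere. Gzmb and Gzma, proteases of cytotoxic lymphocytes, had 10 and 7 control reads and levels of at most 4.87 and 2.80 RPKM.

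Of 12 regulators of priming and activation, all 12 passed the filter, and 8, 11 and 11 had a fitted level above control on days 1, 3 and 7, with none called and medians of 0.36, 0.50 and 0.86. Gbp5, an interferon-inducible GTPase that promotes inflammasome assembly, was at 0.605 RPKM in the control, at 1.55, 10.1 and 6.41 in DSS and at 9.69, 1.96 and 7.60 in PhIP/DSS. Cd14, a lipopolysaccharide co-receptor of monocytes and also a macrophage marker here, was at 23.6 RPKM in the control and between 46.8 and 198 elsewhere. Txnip, an NLRP3-binding redox protein, was at 253 RPKM in the control and between 199 and 297 elsewhere. P2rx7, the ATP-gated channel upstream of NLRP3, was 1 of 4 regulators with a fitted level below control on day 1 and the only one on days 3 and 7, at 2.54 RPKM in the control and between 0.831 and 2.08 elsewhere (day 1 log2 fold change -1.36, SE 0.39, edgeR adjusted p = 0.1002).

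All 6 substrate cytokines and antagonists passed the filter and had a fitted level above control on each day, with none called and medians of 2.90, 1.86 and 1.97. Il1a and Il33 here, like Mefv, Gzmb and Gbp5 in the lists above, were under 1 RPKM in the control. They passed the filter only through treated libraries. Their levels above the control, and the counts and medians that include them, thus follow in part from the filter. Il1b was at 1.28 RPKM in the control and between 7.51 and 263 in the treated libraries, highest in PhIP/DSS on day 1 as Nlrp3 was. Il18, made by epithelial cells, was at 79.2 RPKM in the control, at 125.7, 110.7 and 139 in DSS and at 104.8, 124.6 and 150.4 in PhIP/DSS. Its span resembled that of Gsdmd and Casp1 rather than Il1b, with fitted log2 fold changes of 0.53, 0.59 and 0.89 (SE 0.17 each). Il1rn, the antagonist of the IL-1 receptor, was at 55.1 RPKM in the control and between 73.4 and 289 elsewhere.

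Of 11 genes of the type 2 epithelial response, 9 had reads and 6 passed the filter, and 3 of the 6 had a fitted level above control on each day, with none called and medians of 0.00, 0.20 and 0.33. Il4ra, the receptor chain through which interleukins 4 and 13 act on STAT6, was at 5.66 RPKM in the control, at 20.2, 29.3 and 28.6 in DSS and at 35.0, 21.2 and 20.3 in PhIP/DSS. Its fitted log2 fold changes were 2.29 (SE 0.50, edgeR adjusted p = 0.0746), 2.18 (SE 0.49, adjusted p = 0.169) and 2.13 (SE 0.49, adjusted p = 0.171). Retnlb, a goblet cell protein induced by type 2 cytokines, was at 1227 RPKM in the control and between 1525 and 4683 elsewhere. Il13ra1, the chain that pairs with Il4ra to bind interleukin 13, was at 57.9 RPKM in the control and between 59.1 and 100.2 elsewhere. Dclk1, a tuft cell kinase, was at 2.85 RPKM in the control and between 0.596 and 1.56 elsewhere. Il4ra, Retnlb and Il13ra1 were thus above the control in the same libraries in which the Gsdmc genes were below it. Dclk1 was below the control in all of these libraries, as the Gsdmc genes were. Also on the list, Sprr2a2 was at 8.53 RPKM in the control and between 4.81 and 9.56 elsewhere. Stat6 was at 34.0 RPKM in the control and between 29.5 and 34.7 elsewhere. The cytokine genes Il4 and Il13 were listed in no library.

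**Figure D5:**
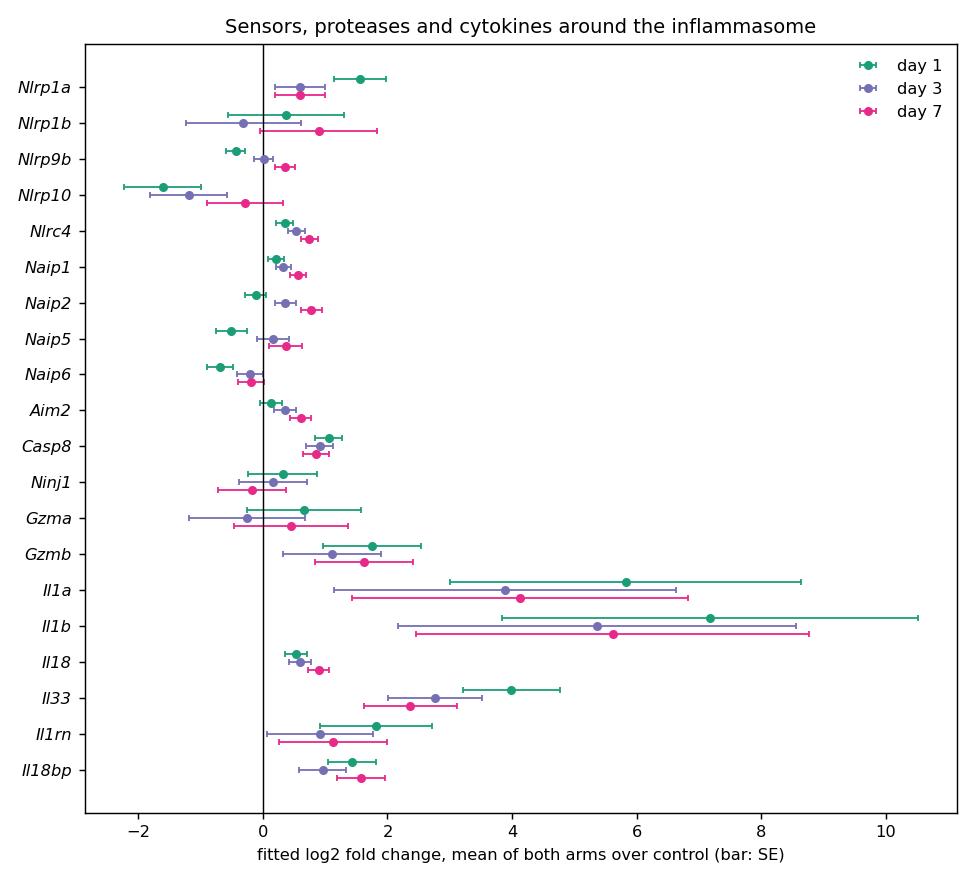
Fitted log2 fold change of the mean of both arms over control (horizontal axis) for sensors, proteases and cytokines (vertical axis) on days 1, 3 and 7. Bars are standard errors of the edgeR fit. Mefv, with 0 control reads, is not drawn, and some proteases are not shown. Il18 and Nlrc4 lie between 0.35 and 0.89, and none of the points passed the test.

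RefSeq promoter windows of GRCm38.p6, from 250 bases before to 50 after a start, were found for 6 of the 9 genes. The NF-kB consensus was matched in the Casp4 windows, which overlap and share the site, in 1 Nlrp3 window and in 4.51% of 32851 windows. The STAT6 motif, TTC and GAA with 4 bases between them, was matched in the other Nlrp3 window and in 6.95% of all windows. The AP-1 motif TGANTCA was matched in the window of Nlrp6 and in 7.81% of all windows. Both strands were searched. The gamma-activated site TTCNNNGAA (8.30% of all windows) and the interferon-stimulated response element, GAAA repeated after 2 bases (3.44%), were matched in none of the 6. The window of Gsdmc3, the only Gsdmc copy with one, held none of the 5 motifs, which says only that these letters are not in this window.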

How the data were processed

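Poly(A) RNA of 7 pools was sequenced on an Illumina HiSeq by BGI, per the labels' protocols, which describe no strand-specific step. Per the file headers, the authors deposited for each library the count of unique reads per gene, RPKM and percent coverage of each gene. The submitters' processing notes name the mm10 build and FastQC, and the sources used here give no aligner, counter, annotation, read length or strand setting. The labels, not the table names, whose day codes differ from them, set groups and days. Genes with no row were entered as 0 reads. Depth was between 7664276 and 8781886 unique reads. Identifiers were matched to RefSeq symbols, with 53 of 18036 genes left without one.

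The count model was edgeR 4.0.16, run in R 4.3.3 (TMM scaling, quasi-likelihood test, Benjamini-Hochberg adjustment over all 12061 genes), with a common dispersion of 0.0563, a biological coefficient of variation of 23.7%. Alternatives were DESeq2 1.42.0, limma 3.58.1 on log2(RPKM + 1) and log2(RPKM + 0.1), other scalings, no filter, no PhIP term, no day term, summed Gsdmc reads and each library left out. Ratios of 2 libraries carry exact conditional binomial 95% intervals, and a count of 0 was set to a floor of 3 reads per library. Of each pathway list, the text names the 2 genes with the highest mean RPKM and those with the largest and smallest fitted fold on each day. Some genes that this rule names are not reported here. Any other gene named was chosen after its values were seen. The 9 genes and the lists were chosen with earlier results of these data known, and nothing here is independent of them.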

Additional observations from a re-analysis of the deposited data

How the results depend on the processing

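No paired analysis was possible because each arm and day has 1 library, so replicate numbers pair nothing. The arms are paired by day through the model's day terms, and without these the edgeR comparison of PhIP/DSS with DSS also made 0 calls (unadjusted p under 0.05 for 207 genes). All 5 comparisons kept 0 called genes under the other count scalings, and the members past the 2-fold limit were as many under TMM scaling. For days 1, 3 and 7 against control, for day 7 against day 1, and for the PhIP term, DESeq2 called 1243, 438, 459, 693 and 13 genes. With no PhIP term the first 4 gave 1305, 27, 59 and 57. With no filter the comparisons with control gave 6, 3 and 29, with limma and a pseudocount of 0.1 they gave 6, 16 and 42, and with a pseudocount of 1 days 3 and 7 gave 2 each. With Gsdmc reads summed, day 3 gave 3. Leaving out 1 library gave 0 to 4280, 0 to 2271, 0 to 2010, 0 to 2986 and 0 to 324 calls in that order. The calls came without DSS day 1 (4280, 2142, 1896, 2986 and 282) or without PhIP/DSS day 1 (1495, 2271, 2010, 786 and 324), and the other left-out libraries gave 0. A day left with 1 library was assumed to vary like the others, and the cause was not tested.

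Among the comparisons of single members, 568 kept direction and side of the threshold, 53 passed it and 27 reversed. Those that passed did so mainly without DSS day 1 (24) or without PhIP/DSS day 1 (22). The fit of summed Gsdmc reads enters these counts once beside each of Gsdmc2, Gsdmc3 and Gsdmc4. The values of the Gsdmc genes, Gsdmd, Casp1, Pycard and Nlrp3 against control reversed under none of these settings. Each of these genes had all 6 treated libraries on one side of the 1 control library, which every such setting kept. A reversal was therefore hardly possible, and its absence says little. With a library left out, Nlrp6 on day 1 against control lay between -0.44 and 0.27 on the log2 scale. The other reversals were between treated libraries. For day 7 against day 1, Gsdmc2 was 0.011 with no PhIP term. The summed Gsdmc reads, set beside Gsdmc2, gave 0.19, a value of the sum and not of Gsdmc2. With a library left out, that contrast lay between -0.84 and 0.91 for Gsdmc2, -0.78 and 1.35 for Gsdmc3 and -0.48 and 1.55 for Gsdmc4. It lay between -0.67 and 0.074 for Nlrp6, -0.10 and 0.23 for Pycard and -3.12 and 2.64 for Nlrp3. The upper end for Nlrp3 came without PhIP/DSS day 1, so its direction depended on the libraries kept. The PhIP term lay between -0.028 and 1.14 for Gsdmc2, -0.10 and 1.18 for Gsdmc3, -0.19 and 1.11 for Gsdmc4, -0.17 and 0.32 for Nlrp6 and -2.28 and 1.02 for Nlrp3, which was 0.33 with no day term. The Gsdmc genes reversed there without DSS day 3 or without PhIP/DSS day 3. Depth limits Casp4 and Nlrp3, with at most 152 and 274 reads in a library.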
